A study of Homo sapiens with 2 samples.

Results

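The EGR, KLF and IER early response genes are 10 genes that many cells switch on soon after a stimulus: the transcription factors EGR1, EGR2, EGR3, KLF2, KLF4 and KLF6, the immediate early genes IER2, IER3 and IER5, and the RNA-binding protein gene ZFP36. Members were taken by name, as all probe sets of the deposited table that the platform annotation assigns to 1 of these genes alone. The annotation gave 17 probe sets for 9 of the 10 genes, out of 19775 genes named in this way, and EGR2, for which it gave none, was not analysed here. Expression was measured on arrays in 2 samples. Both are labelled HL60, a promyelocytic leukaemia cell line of human origin, grown in RPMI medium with 10% serum. The untreated group was 1 sample, with no vehicle or culture time in its labels. The other group was 1 sample given eltrombopag, an iron-binding small molecule that activates the receptor for thrombopoietin, at 3 µg/ml for 36 h. With 1 array per group there is no replicate check and no test, so every difference below lies between 2 arrays, and drug, vehicle and culture time cannot be told apart.

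EGR proteins bind GC-rich DNA through zinc fingers. The EGR1 gene is a classical target of the MAP kinase ERK, which acts through serum response factor (SRF) and its ELK partners at CArG boxes, and the NAB proteins restrain EGR factors in a feedback loop. KLF2, KLF4 and KLF6 bind GC and CACCC boxes; KLF4 and EGR1 are both known for promoting the monocytic path of myeloid cells, and KLF2 for keeping lymphocytes and monocytes quiescent, with the kinase ERK5 and MEF2 factors switching it on. IER2, IER3 and IER5 are small proteins of the growth and stress response. ZFP36, also called tristetraprolin, binds AU-rich elements in cytokine mRNAs and recruits the CCR4-NOT deadenylase to them. The transcripts of these genes are typically short-lived and rise only for a short time after a stimulus, whereas the drug was present here for many hours.

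The promoters of EGR1, KLF2 and KLF6 are shown because EGR1 was the member with the highest ratio, KLF2 the one with the lowest and KLF6 one that hardly differed. Each sequence is the 250 bases before the RefSeq gene start, read on the gene's own strand, from GRCh38.p14. Capitals mark 2 CArG boxes in EGR1 (chr5:138465229-138465478, plus strand), an EGR site and a MEF2 site in KLF2 (chr19:16324576-16324825, plus strand), and an EGR site in KLF6 (chr10:3785210-3785459, minus strand).
EGR1: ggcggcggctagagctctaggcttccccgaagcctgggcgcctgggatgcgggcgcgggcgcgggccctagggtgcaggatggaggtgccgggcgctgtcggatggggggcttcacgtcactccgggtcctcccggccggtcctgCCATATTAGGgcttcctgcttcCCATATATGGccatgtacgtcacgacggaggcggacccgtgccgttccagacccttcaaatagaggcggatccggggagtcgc
KLF2: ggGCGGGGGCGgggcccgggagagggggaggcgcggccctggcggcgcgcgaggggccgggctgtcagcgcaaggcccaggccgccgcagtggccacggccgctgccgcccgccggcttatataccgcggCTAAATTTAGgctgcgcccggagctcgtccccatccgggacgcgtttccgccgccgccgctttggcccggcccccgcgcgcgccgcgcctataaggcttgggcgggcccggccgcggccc
KLF6: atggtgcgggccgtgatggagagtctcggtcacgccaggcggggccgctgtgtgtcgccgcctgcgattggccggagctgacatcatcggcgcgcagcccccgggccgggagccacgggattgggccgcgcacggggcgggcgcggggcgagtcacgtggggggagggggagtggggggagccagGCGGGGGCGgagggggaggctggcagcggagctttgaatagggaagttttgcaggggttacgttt

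The unit is the MAS5 signal, which gives the brightness of a probe set on a linear scale; a probe set is a group of short probes for the same transcript. Signals below 56.9, the 60th percentile of both samples pooled, were raised to that floor before log2 was taken, and a fold that has 1 of its signals at the floor gives only a bound. A gene is called measured where its probe set with the highest mean log2 signal reached the floor in either sample, and ratios are eltrombopag over untreated. Among 10314 measured genes, a 2-fold difference or more was seen upwards for 0.65% and downwards for 2.27%, and the median log2 ratio was -0.12. Marker genes of promyelocytes were measured for 7 of 9 genes on the array. The granule enzyme MPO had a signal of 1556 untreated and 1467 with eltrombopag, and 1326 and 1587 in a second probe set, while ELANE and SPI1 lay below the floor in both samples. Of these 7 markers, 1 passed 2-fold downwards, the granulocyte factor CEBPA, from 819 to 279, and CTSG, a granule protease, was 1.79-fold lower. MYB was 1.35-fold higher, from 4349 to 5855, and AZU1 1.20-fold higher. In all, 2 of the 7 had a log2 ratio above 0 and 5 below 0. The median log2 ratio of the 7 was -0.21. The summed signal of the 9 genes was 8227 untreated and 8757 with eltrombopag. MYB was the largest part of both sums, and the rise in the sum rests on it. Monocyte markers were measured for 1 of 6 genes, with CD14, CSF1R and LYZ below the floor in both samples and a summed signal of 143 and 150.4. All 9 plasma cell markers, which do not belong to the promyelocytic type of the label, lay above the floor in both samples, and their summed signal was 9721 untreated and 5918 with eltrombopag. Of the 9, 5 passed 2-fold downwards and 0 upwards, with a median log2 ratio of -1.27. The part of either marker list in the values below was not tested. The labels also give the cell type as a haematopoietic stem type.

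EGR1 was higher in the eltrombopag sample, by 1.57-fold to 1.88-fold across its 3 probe sets, and none of the 6 measured members passed 2-fold in either direction. Of these 6, EGR1 and KLF6 had a log2 ratio above 0, and IER2, IER5, KLF2 and ZFP36 had one below 0; over all measured genes, 36.6% were above and 63.4% below 0. Counts of 0 members past 2-fold upwards and 0 downwards stand beside 0.65% and 2.27% of all measured genes. Both counts stayed at 0 after median centring, quantile normalization and lowess, beside 0.94%, 1.05% and 1.01% of measured genes upwards and 1.49%, 1.29% and 1.33% downwards. At 3-fold they were 0 as well, beside 0.175% and 0.184%. The counts do depend on the floor, at which KLF2 has only a bound, at least 1.38-fold lower. With the floor at the 50th percentile KLF2 passed 2-fold downwards, beside 2.59% of genes measured then. Without a floor EGR3 passed upwards and KLF2 downwards, beside 6.04% and 6.7% of all genes. The median log2 ratio of the 6 was -0.15, against -0.12 over all measured genes. A lower value in such a bulk sample can come from fewer cells that express the gene or from less RNA per cell, and these cannot be told apart.

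**Figure D1:**
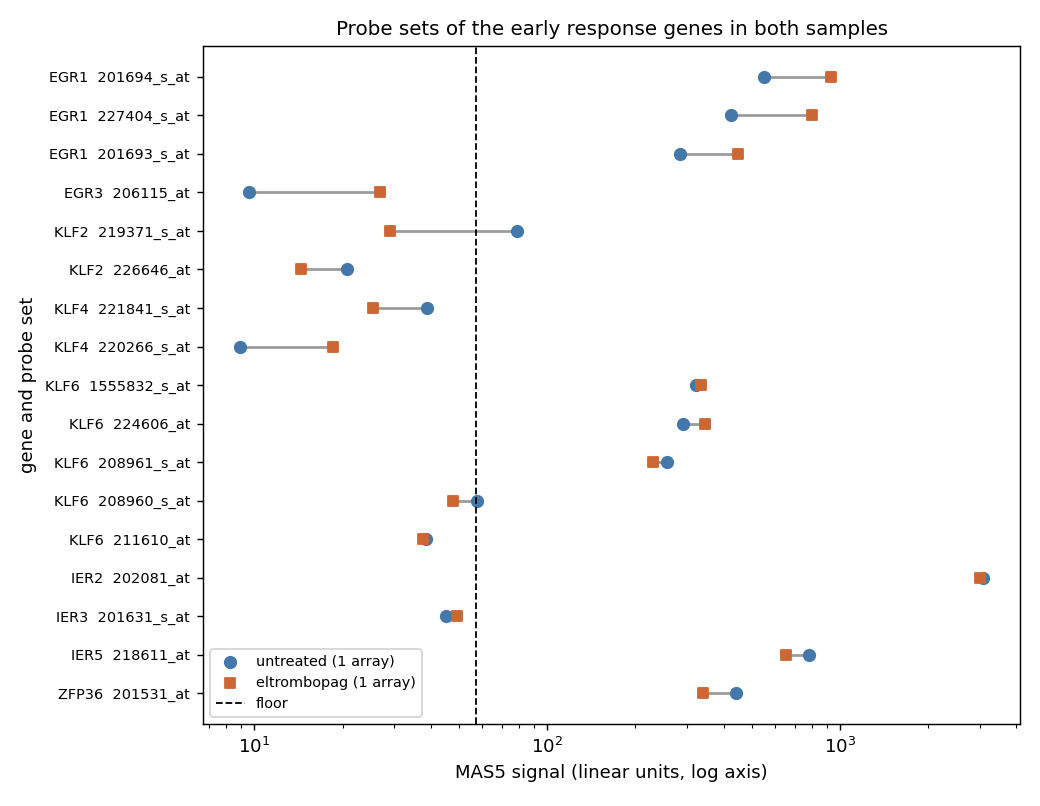
MAS5 signal (log axis) of each of the 17 probe sets of the early response genes in the untreated sample (circles) and the eltrombopag sample (squares), with a line joining both and a dashed line at the floor of 56.9. The 3 EGR1 probe sets lie to the right of the floor with the eltrombopag sample higher, 1 KLF2 probe set crosses the floor from 78.55 to 29.1, and those of EGR3, KLF4 and IER3 lie to the left of it.

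EGR1, the zinc finger factor of growth and differentiation signals, was the member with the clearest difference. The probe set used for the gene gave a signal of 551 untreated and 932 with eltrombopag. A second probe set gave 424 and 799. The dimmest gave 285 and 448. All 3 were higher with eltrombopag, with log2 ratios of 0.76, 0.91 and 0.65, so that they differed among themselves by at most 0.26. For comparison, 4374 genes had 2 or more probe sets that passed the floor in each sample. The log2 ratios of their brightest pair differed by a median of 0.21, and for 1 gene in 20 by 0.76 or more. Only the brightest pair of each gene enters here, which for EGR1 had 0.76 and 0.91, whereas 0.26 spans all 3. Such differences are disagreement within the arrays, not an error between cultures. The 3 probe sets carry the suffix _s_at, which marks probes shared by several transcripts, and how far their probes overlap is not known here.

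The log2 ratio of 0.76 placed EGR1 at rank 159 from the top of 10314 measured genes, among the highest 1.54%. Of the 6 measured members, EGR1 alone was at least 1.5-fold higher and 0 were at least 1.5-fold lower; over all measured genes these shares were 3.49% and 11.8%. Centring the arrays on their median, quantile normalization and lowess gave EGR1 log2 ratios of 0.86, 0.84 and 0.85, at ranks 158, 176 and 170. EGR3, a close relative of EGR1, had 1 probe set, at 9.58 untreated and 26.8 with eltrombopag. Both values lie below the floor, so no fold is given for it. Without a floor it would pass 2-fold on the higher side, as do 6.04% of all genes then.

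**Figure D2:**
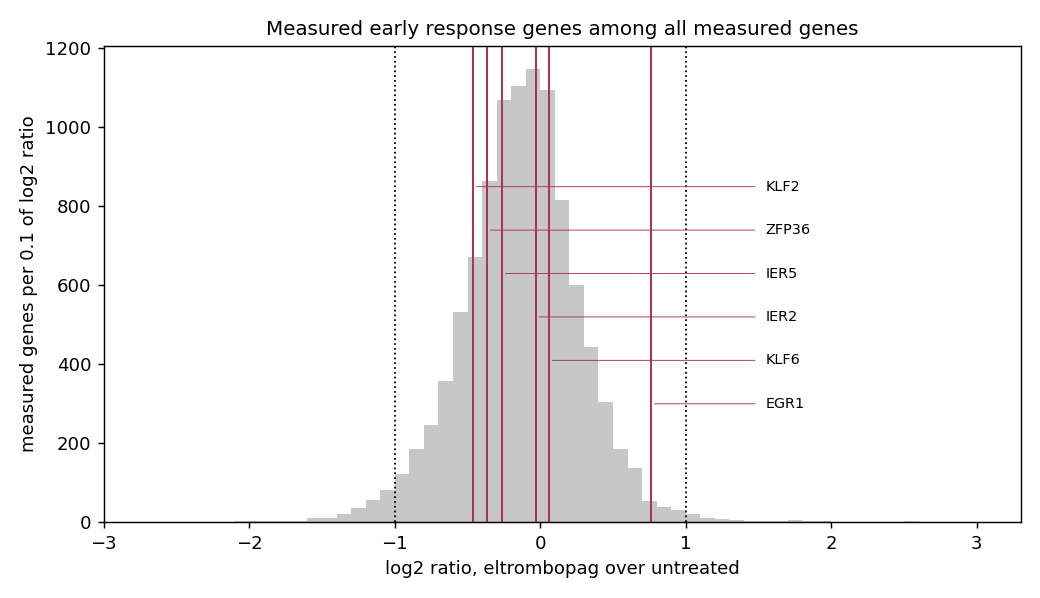
Number of measured genes (y axis) by log2 ratio of eltrombopag over untreated (x axis, bins of 0.1), with a vertical line for each of the 6 measured early response genes and dotted lines at a 2-fold difference. EGR1, at 0.76, stands in the right tail, and the other 5 lie in the body of the distribution between -0.46 and 0.06.

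The KLF members did not share a direction. KLF2, the quiescence factor, gave 78.55 untreated and 29.1 with eltrombopag in its brighter probe set, and 20.6 and 14.4 in the other. The first crossed the floor, so KLF2 was at least 1.38-fold lower, and the second lay below the floor throughout. With the floor at the 50th percentile, a signal of 32.15, the same probe set was at least 2.44-fold lower. KLF2 was then the 1 member past 2-fold. Of all genes measured at that floor, 2.59% passed 2-fold downwards and 0.735% upwards, and 0.864% had a ratio as low as that of KLF2 or lower. Without a floor KLF2 also passed 2-fold on the lower side, as did 6.7% of all genes. KLF4, a factor of monocyte and epithelial differentiation, had probe sets at 38.9 and 25.4 and at 8.92 and 18.5 in the untreated and eltrombopag samples. All of these are below the floor, and the 2 probe sets differed in opposite directions, so KLF4 has no settled direction.

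KLF6, a broadly expressed factor of wound and stress responses, differed little and not in 1 direction. Its brightest probe set by mean log2 signal gave 322 untreated and 335 with eltrombopag, the second 291 and 347, and the next 256 and 229. Their log2 ratios were 0.06, 0.25 and -0.16, a spread wider than the reported difference of 0.06. The other KLF6 probe sets lay at 57.7 and 47.8, which crosses the floor, and at 38.7 and 37.7, below it.

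Of the IER genes, 2 were measured. IER2, an early gene induced by growth factors, gave a signal of 3084 untreated and 3015 with eltrombopag, a log2 ratio of -0.03 that turned to 0.07, 0.06 and 0.05 after median centring, quantile normalization and lowess. IER5, an early gene linked to the heat shock factor, gave 785 and 654, a 1.20-fold lower value with a log2 ratio of -0.26. Once the shift of all genes is taken off, its difference was -0.14. IER3, a regulator of apoptosis, was below the floor throughout, at 45.0 and 49.1, and gets no fold. IER2, IER3 and IER5 have 1 probe set each, so no second reading of these genes is at hand.

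ZFP36, the mRNA decay factor, gave 441 untreated and 341 with eltrombopag, 1.29-fold lower, with a log2 ratio of -0.37. It likewise rests on 1 probe set. Of all measured genes, 25.3% had a ratio as low or lower, as against 34.6% for IER5 and 18.6% for the bound of KLF2. Relative to the median of genes above the floor in both samples, the difference of ZFP36 was -0.25.

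**Figure D3:**
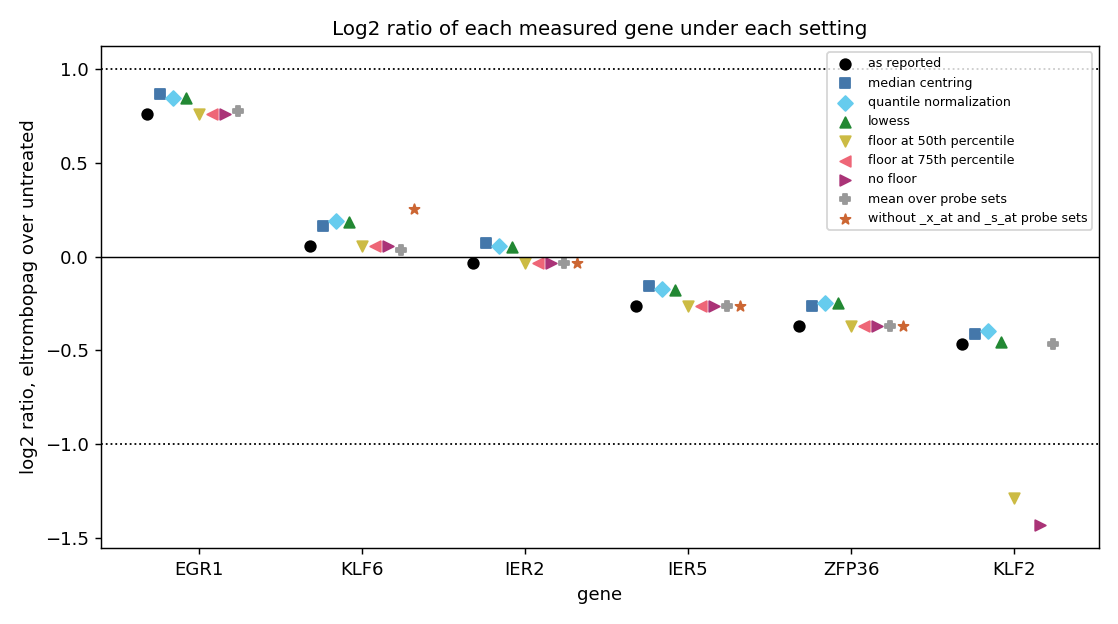
Log2 ratio of eltrombopag over untreated (y axis) of the 6 measured early response genes (x axis) as reported (circles) and under each other scaling, floor or choice of probe sets (other symbols); dotted lines mark a 2-fold difference. EGR1 stays between 0.76 and 0.86, IER2 changes sign with the scaling, and KLF2 passes 2-fold with the lower floor and without a floor; without probe sets ending in _x_at or _s_at, EGR1 has none left and KLF2 only one below the floor.

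The measured relatives and corepressors of EGR1 had ratios below 0, unlike EGR1. NAB2, the corepressor that EGR1 itself induces, was lower, from 168 to 101, or 1.66-fold, and its second probe set lay below the floor. NAB1, a related corepressor, had log2 ratios of -0.11, -0.55 and -0.36 in its 3 probe sets that passed the floor. WT1, a zinc finger factor that binds similar DNA, was 1.45-fold lower, from 655 to 451, and EGR4 lay below the floor. Of 6 measured genes known as EGR1 targets, 0 passed 2-fold in either direction, beside 0.65% upwards and 2.27% downwards of all measured genes. Their median log2 ratio was -0.16, against -0.12 over all measured genes. The lowest was TGFB1, the growth factor, at -0.55, followed by the adhesion receptor CD44 at -0.35, with -0.97 to 0.38 in the others that passed the floor in each sample, and 1 gene, the matrix protein FN1, was above 0, with at least 1.11-fold from a floor value. The balance depended on the scaling, since 3 of the 6 were above 0 after quantile normalization.

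SRF and its partners, which read ERK signals at the EGR1 promoter, were all 6 measured, and 0 passed 2-fold in either direction. Over all measured genes, 0.65% passed 2-fold upwards and 2.27% downwards. ELK3 and MRTFB, an ELK factor and a myocardin-related cofactor, had log2 ratios of -0.67 and -0.61, and ELK4 and MRTFA had 0.18 and 0.17. SRF itself was lower, from 325 to 266, with a log2 ratio of -0.29. Of 12 measured genes of the ERK and ERK5 pathways, 0 passed 2-fold, 10 were below 0 and the median was -0.31, or -0.19 after quantile normalization. Over all measured genes 63.4% were below 0 on the same deposited scale. After median centring, quantile normalization or lowess, 9 of the 12 were below 0. MAP2K5 and MEF2D, an activator of ERK5 and a factor that ERK5 acts on, had log2 ratios of -0.48 and -0.45, with -0.38, -0.12 and 0.11 in other MAP2K5 probe sets. The second MEF2D probe set gave 0.56, from 137 to 202, so MEF2D has no settled direction. RPS6KA5, the kinase MSK1, and ARAF had 0.39 and 0.16.

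Other KLF genes were mixed as well. Of 10 measured, 1 passed 2-fold downwards and 0 upwards, beside 2.27% and 0.65% of all measured genes, and 9 lay between. Their median log2 ratio was -0.19. KLF15, a factor of metabolic tissues, was 2.33-fold lower, from 159 to 68.3. KLF9, which glucocorticoids induce, was 1.84-fold higher, from 271 to 499, and 1.31-fold higher in its second probe set; it was the 1 KLF gene past 2-fold on the higher side after quantile normalization and after lowess. KLF16 was 1.54-fold higher in 1 probe set and had a log2 ratio of -0.08 in the other. Of the paralogs of IER5 and ZFP36, IER5L had a log2 ratio of 0.21, ZFP36L1 0.40 and ZFP36L2 -0.40, and the second ZFP36L2 probe set gave 0.18.

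The wider set of early response genes held several past 2-fold. Of 33 measured genes, 5 passed 2-fold upwards and 0 downwards, beside 0.65% and 2.27% of all measured genes, and the median was 0.03. The AP-1 subunits FOSB and FOS went from 80.3 to 530 and from 153 to 575. PPP1R15A, which restores translation after stress, went from below the floor to 206 in its brightest probe set, and from 73.2 to 136, 1.86-fold, in the other. The NF-kB feedback genes NFKBIA and TNFAIP3 went from 426 to 1061 and from 537 to 1296, and the second TNFAIP3 probe set was 1.92-fold higher. These high ratios were known when the EGR, KLF and IER genes were chosen, and are given for scale. ID2 and HES1, repressors of the helix-loop-helix class, were the lowest of the list, with log2 ratios of -0.84 and -0.68, and a second HES1 probe set gave -1.23. By the probe set used for each gene, EGR1, with 1.69-fold, lay below these 5 genes, near CSRNP1, an early nuclear factor, at 1.84-fold. Its second probe set, 1.88-fold higher, lay between the second ones of PPP1R15A and TNFAIP3. JUN and ATF3, with log2 ratios of 0.03 and -0.03, lay near IER2 and KLF6.

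**Figure D4:**
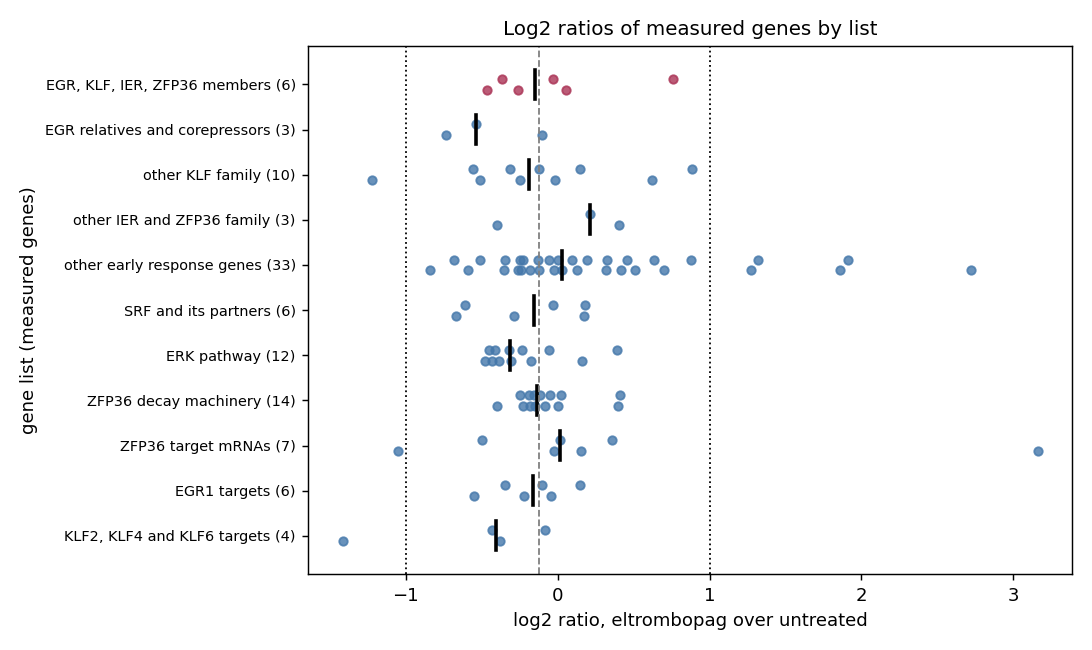
Log2 ratio of eltrombopag over untreated (x axis) of each measured gene (points) by list (y axis, number of measured genes in brackets), with black bars at list medians, a dashed line at the median of all measured genes and dotted lines at a 2-fold difference. The 6 measured members reach from -0.46 to 0.76, and 5 of the 33 other early response genes lie beyond 2-fold on the higher side, as does 1 of the 7 ZFP36 targets.

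ZFP36 acts by shortening the life of its target mRNAs, so the readout of its targets was set beside it. Of 7 measured target genes, 1 passed 2-fold upwards and 1 downwards, beside 0.65% and 2.27% of all measured genes. Their median log2 ratio was 0.02. CXCL8, the chemokine interleukin-8, went from 127 to 1138 in a probe set with the suffix _x_at, while its other probe set lay below the floor. TNF, the best-known ZFP36 target, went the other way, from 392 to 189, 2.08-fold lower, and did not reach 2-fold under any of the 3 other scalings. CCL4 had a log2 ratio of 0.36, and PIM1, which crossed the floor, was at least 1.41-fold lower. VEGFA and CCND1 had log2 ratios of 0.16 and 0.02, with -0.19 in another CCND1 probe set. Of 14 measured genes of the decay machinery, 0 passed 2-fold in either direction by the probe set used. For HNRNPD that probe set gave a log2 ratio of -0.16. The other HNRNPD probe sets above the floor in each sample ranged from -1.07, which is 2.11-fold lower, to 0.38. CNOT3 and CNOT2, subunits of the CCR4-NOT complex, had log2 ratios of 0.41 and 0.40, and CNOT8, a deadenylase subunit, had -0.25. ELAVL1, a protein that stabilises AU-rich mRNAs, had -0.40, with -0.03, -0.50 and 0.16 in its other probe sets.

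Of 4 measured genes known as targets of KLF2, KLF4 or KLF6, 0 passed 2-fold upwards and 1 downwards. Over all measured genes these shares were 0.65% and 2.27%. The median log2 ratio of the 4 was -0.40, against -0.12 over all measured genes. Without probe sets ending in _x_at or _s_at, 2 of these targets were measured, with a median of 0.02 and 0 past 2-fold. The lower gene was CDKN1A, the cell cycle inhibitor p21 and a known KLF4 and KLF6 target, which went from 342 to 128. ENG, a coreceptor for TGF-beta and a KLF6 target, had a log2 ratio of -0.43, and 5 of the 9 targets on the array lay below the floor.

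The members share compact genes. Their genomic spans in GRCh38.p14 ran from 1.35 kb for IER3 to 9.21 kb for KLF6, and 7 of the 10 spanned at most 5 kb, against 8.59% of measured protein-coding genes, whose median span was 31.3 kb. The 833 measured genes of at most 5 kb had a median log2 ratio of -0.22, against -0.12 over all measured protein-coding genes. Of them, 1.2% passed 2-fold upwards and 3.48% downwards, against 0.65% and 2.27% of all measured genes.

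Motifs were searched on both strands in windows from 250 bases before to 50 after the start of 35116 RefSeq genes and alternative starts. Windows were found for 8 of the 10 members. The CArG box, the SRF site printed in capitals for EGR1, was present in 1.29% of all windows and, among the members, in those of EGR1 and EGR2. EGR1 held 2 matches, which end 96 and 74 bases before the start. Of 33 other early response genes with a window, 26 of them measured, 0 held this motif there. The 5 past 2-fold were among the 26. As only 1.29% of all windows hold it, a count of 0 in 33 says little. Sites farther than 250 bases before the start were not searched. The 139 measured genes with a CArG box had a median log2 ratio of -0.10, close to that of all measured genes.

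The MEF2 site printed for KLF2 was present in 2.99% of windows and in no other member. The EGR site GCGGGGGCG was present in 5.07% of windows and, among the members, in KLF2 and KLF6; in KLF2 it overlaps a GC box, CCCGCCC on the other strand. The EGR site GCGTGGGCG, in 0.795% of windows, and the full cyclic AMP element TGACGTCA, in 1.85%, were in none of the member windows, whereas TGACG, its shorter form, was in those of EGR1, EGR2, IER2 and KLF4 and in 24.6% of all windows. The 908 measured genes with the GCGGGGGCG site had a median log2 ratio of -0.13. A match describes letters in a window and is not evidence that a factor was bound.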

How the data were processed

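Trizol was used to extract total RNA and biotin-labelled cRNA was prepared by Affymetrix's protocol, per the labels' protocols. The deposited table gives, for each sample and probe set, a linear signal intensity. The submitters' processing notes name MAS5; for its version, scaling target and detection calls nothing is stated in the labels or the table. MAS5 summarises each array alone, and its low signals carry large relative error. The number of arrays limits the precision.

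Of 54613 probe sets, 41091 were named for 1 gene, 1801 for several and 11721 were not listed in the platform annotation. Of those with 1 gene, 41037 matched the RefSeq gene table of GRCh38.p14, which changed 0 symbols. The floor was the 60th percentile, the threshold 2-fold. Each gene took its probe set with the highest mean log2 signal. From other gene lists, genes past 2-fold were named, or otherwise the 2 with the largest change in each direction. Genes outside this rule (SRF, NAB1, EGR4, JUN, ATF3, CSRNP1, CCL4, PIM1, VEGFA, CCND1, ENG, HNRNPD and the markers) were named after their values were seen. The members and lists were chosen with earlier results of these data known. The code that counts genes was tested on simulated data, which says nothing of the treatment. Python 3.11.15, numpy 2.4.6, pandas 2.3.3 and statsmodels 0.14.6 (lowess, span 0.3) were used.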

Additional observations from a re-analysis of the deposited data

How the results depend on the processing

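The alternatives were median centring, quantile normalization, lowess, a floor at the 50th or 75th percentile or at a signal of 1 (no floor), averaging a gene's probe sets, dropping those ending in _x_at or _s_at, and thresholds of 1.5-fold and 3-fold. The count of members at least 2-fold higher was 0 under each of them except that 1 member, EGR3, passed without a floor, where 6.04% of all genes did, and 1, EGR1, passed a 1.5-fold threshold. The count at least 2-fold lower was 0 except that 1, KLF2, passed with the 50th percentile as floor and 1, again KLF2, without a floor, where 6.7% of all genes did; in both cases the change comes from values below the floor. The median log2 ratio of the members ranged from -0.15 to -0.03. KLF2 had log2 ratios of -1.29 and -1.43 with the lower floor and with none. EGR1 was above 0 and below 2-fold under all 7 alternatives that gave it a value, and stood among the highest 1.13% to 1.74% of genes except without a floor, where it stood at 9.03%. No paired analysis was possible because each group holds 1 sample, and for the same reason no sample could be left out. Low signals, at which MAS5 values scatter most, limit what can be said of EGR3, KLF2, KLF4 and IER3.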
